A study of Mus musculus with 2 samples.

Results

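Chemokines are small secreted proteins that guide migrating cells, and their receptors are membrane proteins that couple to G proteins of the Gi class. Ligands and receptors are named after the spacing of cysteines in the ligand (CXC, CC, CX3C and XC), and atypical receptors (Ackr) bind ligands without G protein signalling and clear or present them. In the embryonic mouse heart the ligand Cxcl12 with its receptors Cxcr4 and Ackr3 is known for roles in valves and coronary vessels, while many other members are known from leukocytes. These genes were taken from the deposited table by symbol, as every gene whose symbol is Cxcl, Ccl, Cxcr, Ccr or Ackr with a number, or is Cx3cl1, Cx3cr1, Xcl1 or Xcr1. The rule found 55 genes among 21225, namely 33 ligands and 22 receptors, of which 4 receptors were atypical.

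Right atria of E11.5 mouse embryos with and without Shox2 (wildtype and Shox2-/-) were compared in the study to look for genes downstream of Shox2, a homeodomain transcription factor of the sinoatrial node, the pacemaker of the heart. The study's mice had been crossed into the outbred line CD-1, and no other allele or treatment is given. The dissected tissue included the sinus venosus myocardium and the venous valves. RNA of 6 right atria of embryos from 2 pregnancies was pooled for each genotype and hybridized to 1 GeneChip Mouse Gene 1.0 ST array, so that there are 2 arrays. The values are log2 signals, 1 per gene and array, and a positive difference means a higher signal in Shox2-/- atria. A single array per genotype gives no error and no p-value, and the precision of every value is limited by the number of arrays.

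The targeted gene Shox2 had a log2 signal of 8.43 in wildtype and 7.48 in Shox2-/- atria, a difference of -0.95. All 11 genes of atrial muscle that were looked up were well measured on both arrays, with log2 signals from 7.88 to 13.17 on the wildtype array and a median difference of 0.049, Myh7 at 0.33 and Nkx2-5 at 0.27 being the farthest from 0. Olfactory and vomeronasal receptor genes, 1291 in number, served as a measure of the signal that background can reach, and their 95th percentile, called the receptor level here, was 6.78 in wildtype and 6.97 in Shox2-/- atria. The SD over all genes was 1.32 in wildtype and 1.25 in Shox2-/- atria, and the median difference was 0.12 in the third of 10 bins from low to high mean signal and -0.089 in the ninth. Low signals thus lay slightly higher and high signals slightly lower on the Shox2-/- array over all genes. Differences printed for single chemokine genes are therefore also given with this trend removed. Marker genes also differed between the pools, with 9 of 10 liver genes and 9 of 11 erythroid genes at -0.4 or less and medians of -0.97 and -0.47. The 9 liver genes lay between Serpina1a at -2.24 and Ttr at -0.81, with Alb at -1.50, and the 9 erythroid genes between Hbb-bs at -1.09 and Hemgn at -0.43. The summed linear signal of the liver list was 6771 on the wildtype and 3018 on the Shox2-/- array, and that of the erythroid list 19175 and 13937. Xist, which silences an X chromosome in female cells, had values of 10.13 in wildtype and 6.60 in Shox2-/- atria. The part of these differences between the pools in the results that follow was not tested. In pooled tissue, fewer cells of a type and less RNA per cell cannot be told apart.

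Chemokine genes were mostly weakly measured in the right atria, and 4 of the 55 were past a size threshold. The thresholds are those the study used, a difference of at least 0.35 or of -0.4 or less, used here without a P. Cxcl14, Ccl27a and Cxcr3 were higher on the Shox2-/- array, and Cxcl13 was lower. Of all genes, 1.13% were at or above the upper and 1.78% at or below the lower threshold, while 3 of 55 members (5.45%) and 1 of 55 (1.82%) were. All 4 were among the 27 members above the receptor level on at least 1 array, and of all genes above it 1.16% were higher and 2.4% lower by these thresholds. The share of lower members was near the background, and the share of higher members rests on 3 genes. In the plot of differences against mean signal, Cxcl14 and Cxcl13 lie apart from the cloud of all genes, while Ccl27a and Cxcr3 lie at its upper edge.

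**Figure D1:**
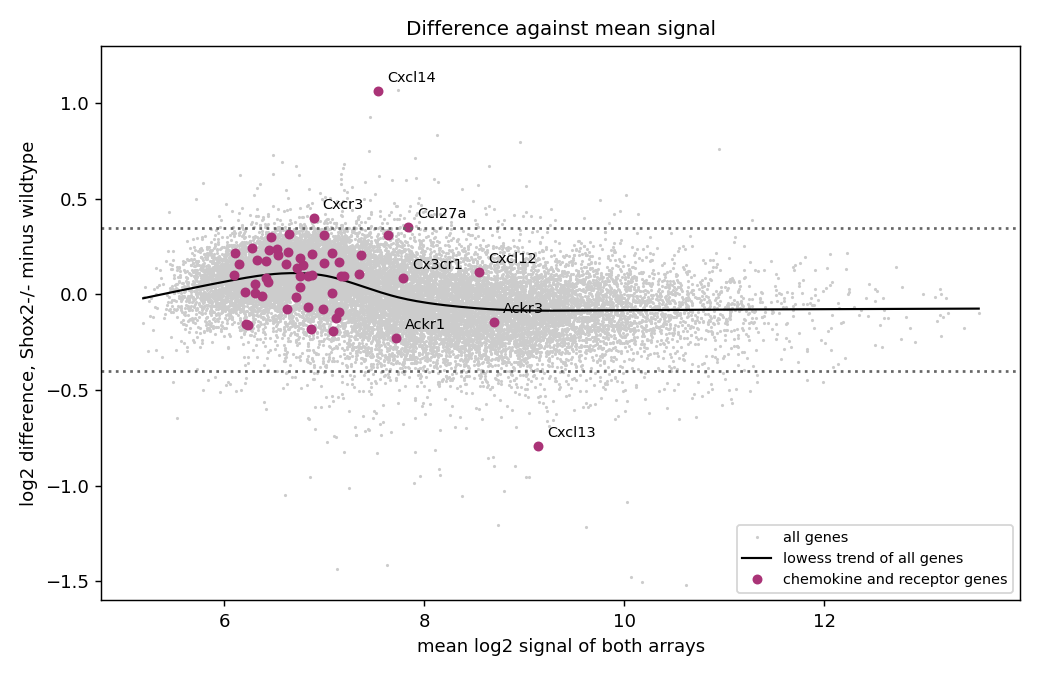
Log2 difference (Shox2-/- minus wildtype, vertical axis) against the mean log2 signal of both arrays (horizontal axis) for all genes (grey) and the 55 chemokine and receptor genes (purple), with the lowess trend of all genes as a black line and the size thresholds of 0.35 and -0.4 as dotted lines. Cxcl14 at 1.07 and Cxcl13 at -0.79 stand apart, and 51 members lie between the thresholds. 2 genes with differences below the lower end of the axis are not shown.

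Cxcl14 encodes a chemokine that many epithelia make without inflammation and whose receptor is not settled. Its log2 signal was 7.01 in wildtype and 8.07 in Shox2-/- atria. This is a difference of 1.07, or 209% of the wildtype signal, and Cxcl14 stood second from the highest difference among all 21225 genes. Both values lay above the receptor level, the wildtype value by little. With the trend over all genes removed the difference was 1.05. In the bin of genes of like mean signal, the sixth of 10, 1.56% were at or above 0.35.

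Cxcl13 encodes the ligand that draws B lymphocytes into lymphoid follicles through Cxcr5. Its log2 signal was 9.54 in wildtype and 8.74 in Shox2-/- atria, a difference of -0.79. Both values lay well above the receptor level, and 57.7% of the wildtype signal was left. Cxcl13 was at rank 30 from the lowest difference among all genes, and its difference was -0.71 with the trend removed. In its bin, the ninth of 10, 3.25% of genes were at -0.4 or less. The receptor gene Cxcr5 had signals of 6.04 and 6.14 on the wildtype and Shox2-/- arrays, below the receptor level on both. The signal of the Cxcl13 gene was thus measured without a measurable signal of its receptor gene in the same tissue.

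The sequences before the start sites of the most raised and the most lowered member are printed here with that of Cxcl12, a measured ligand between the thresholds, because some of the probes with which the study measured binding in another gene contain the palindrome AATT. Each window holds the 250 bases before an annotated start, from RefSeq on build GRCm38.p6, 5' to 3' on the strand of the gene, with AATT in capitals.
Cxcl14 (chr13:56296552-56296801, minus strand): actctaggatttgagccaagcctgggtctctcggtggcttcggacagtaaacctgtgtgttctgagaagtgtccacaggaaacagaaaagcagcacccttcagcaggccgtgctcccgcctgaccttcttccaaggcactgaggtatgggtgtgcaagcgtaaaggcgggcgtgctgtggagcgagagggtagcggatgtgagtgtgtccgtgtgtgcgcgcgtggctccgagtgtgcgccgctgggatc
Cxcl13 (chr5:95956689-95956938, plus strand): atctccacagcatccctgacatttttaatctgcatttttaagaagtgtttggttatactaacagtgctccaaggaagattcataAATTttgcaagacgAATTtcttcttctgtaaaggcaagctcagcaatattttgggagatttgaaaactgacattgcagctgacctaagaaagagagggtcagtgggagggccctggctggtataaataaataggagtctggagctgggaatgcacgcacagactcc
Cxcl12 (chr6:117168285-117168534, plus strand): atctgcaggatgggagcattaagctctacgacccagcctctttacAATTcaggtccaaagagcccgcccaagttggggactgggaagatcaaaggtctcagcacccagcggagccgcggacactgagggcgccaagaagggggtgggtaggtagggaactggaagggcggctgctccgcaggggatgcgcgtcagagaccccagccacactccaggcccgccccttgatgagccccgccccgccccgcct
The Cxcl14 window holds no AATT, the Cxcl13 window 2 and the Cxcl12 window 1. AATT reads the same on both strands, and it is in 47.1% of all 32851 promoter windows of this length. The longer palindrome TAATTA, which contains AATT, is in 4.84% of all windows and in none of the 3 printed here. Windows were found for 41 of the 55 members, 45 in all, of which 27 (60%) hold AATT and 2 hold TAATTA, those of Ackr4 and Cxcl15. A match describes letters and does not mark a binding site, and no binding was measured at these genes.

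Ccl27a and Cxcr3 were the other members past the upper threshold, both by little. Ccl27a, a CC ligand known from skin keratinocytes, had log2 signals of 7.66 and 8.02 on the wildtype and Shox2-/- arrays, a difference of 0.35, which was 0.38 with the trend removed. The mouse genome holds a near-identical copy, Ccl27b, so that which copy gave the signal is uncertain. Its receptor gene Ccr10 had 7.07 on the wildtype and 7.08 on the Shox2-/- array, a difference of 0.0077 that was -0.083 with the trend removed. Cxcr3, an X-linked gene for the receptor of interferon-induced ligands on T cells, had 6.69 and 7.09, and only the Shox2-/- value lay above the receptor level. Its difference of 0.40 was 0.29 with the trend removed and then no longer past the threshold. The ligand genes of Cxcr3 lay below the receptor level on both arrays, Cxcl9 with a difference of 0.16, Cxcl10 with -0.076 and Cxcl11 with 0.21. These became 0.050, -0.19 and 0.096 with the trend removed.

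The Cxcl12 axis was measured on both arrays and differed little between them. Cxcl12, which guides progenitor and endothelial cells, had log2 signals of 8.49 and 8.61 on the wildtype and Shox2-/- arrays, a difference of 0.12. Ackr3, the atypical receptor that clears Cxcl12, had 8.77 and 8.62, a difference of -0.14. The signalling receptor Cxcr4 had 7.20 and 7.10, a difference of -0.092. All 3 genes lay above the receptor level on both arrays and between the thresholds, the ligand slightly higher and both receptors slightly lower on the Shox2-/- array. The signs were the same with the trend removed, with 0.19 for Cxcl12, -0.066 for Ackr3 and -0.17 for Cxcr4. No endothelial gene of 13 reached a threshold, where 1.13% of all genes reached the upper and 1.78% the lower. The median difference of the 13 was 0.043, with Emcn at -0.17 and Npr3 at 0.18.

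**Figure D2:**
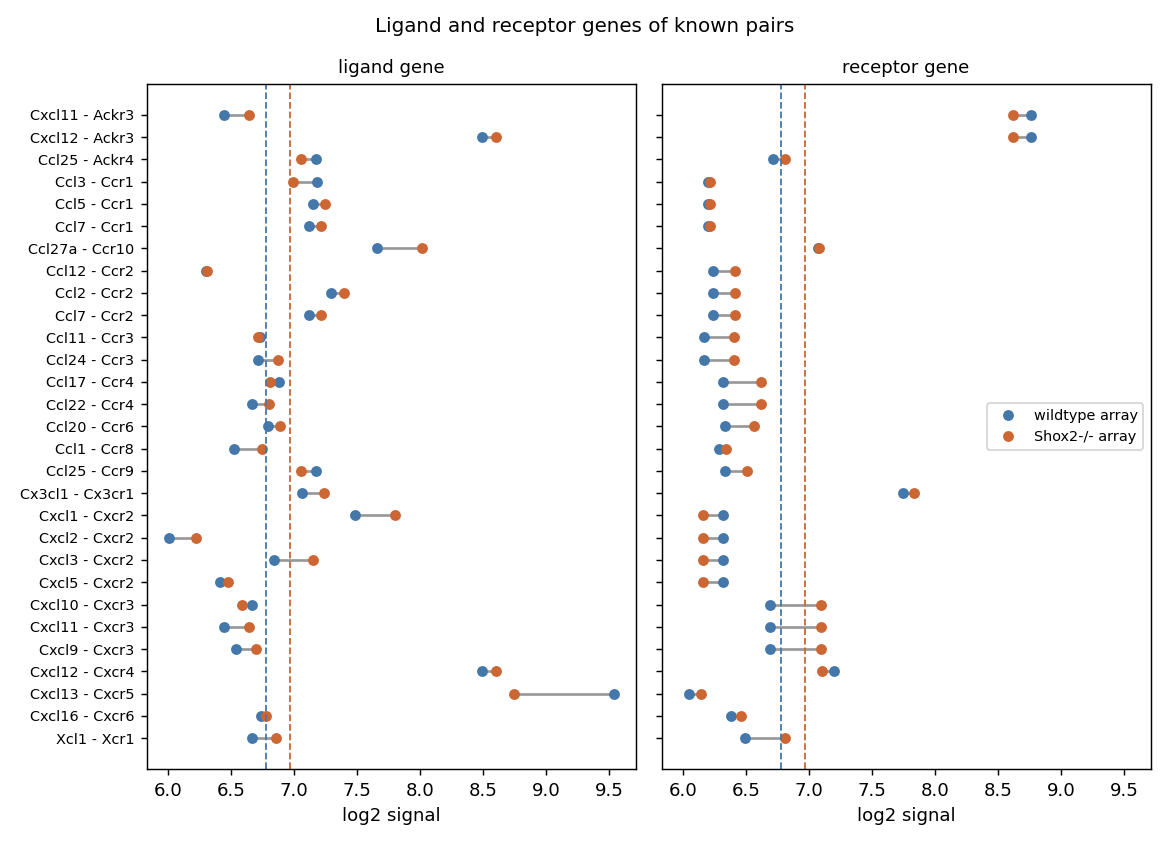
Log2 signals of ligand genes (left) and receptor genes (right) for 29 known ligand and receptor pairs, with the wildtype array in blue, the Shox2-/- array in orange and each array's receptor level as a dashed line. In 4 pairs, Cxcl12 with Cxcr4, Cxcl12 with Ackr3, Cx3cl1 with Cx3cr1 and Ccl27a with Ccr10, both genes lie above the receptor level on both arrays.

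Of 29 known pairs with both genes measured, both partners lay above the receptor level on both arrays in 4. Besides the Cxcl12 axis and Ccl27a with Ccr10, this was the pair of Cx3cl1, a membrane-bound ligand, and Cx3cr1, a receptor of tissue macrophages. Cx3cl1 had log2 signals of 7.07 and 7.23 on the wildtype and Shox2-/- arrays, and Cx3cr1 had 7.75 and 7.83, so that the differences were 0.17 and 0.084, or 0.087 and 0.11 with the trend removed. In 9 pairs neither partner reached the receptor level on either array, and the remaining 16 were measured in part. In the plot of pairs, ligand genes of this last group mostly lie to the right of the dashed lines and the receptor genes to the left.

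The receptors of leukocytes were mostly at background. Of 18 conventional receptors, 6 lay above the receptor level on at least 1 array and 5 on both, namely Cxcr4, Cxcr1, Ccr7, Ccr10 and Cx3cr1, where 70.8% of all genes lay above it on at least 1 array and 66.2% on both. Over all members these numbers were 27 of 55 and 20 of 55. Ccr7, which steers lymphocytes and dendritic cells to lymph nodes, had 7.27 and 7.47 on the wildtype and Shox2-/- arrays, a difference of 0.21 that was 0.16 with the trend removed, and its ligands Ccl19 and Ccl21 were not analysed here. Ccr2, the receptor of monocytes, had 6.24 and 6.42. Ccr1, with 6.20 and 6.21, and Ccr9, with 6.33 and 6.51, also lay below the receptor level on both arrays, as did Cxcr2, the neutrophil receptor, with 6.32 and 6.16. Differences of signals this low describe background as much as transcript. Among leukocyte markers, 14 of 17 macrophage genes lay above the receptor level on at least 1 array, but 3 of 12 lymphoid genes did. The macrophage median difference was -0.034 with Fcer1g at -0.32 and C1qc at 0.18, and the summed linear signal was 3201 on the wildtype and 3081 on the Shox2-/- array. No macrophage or lymphoid gene was past a threshold, where 1.13% of all genes reached the upper and 1.78% the lower. Cd3e was at 0.23 and Cd8a at 0.055, or 0.16 and -0.050 with the trend removed. The summed lymphoid signal was 1153 and 1261, but 9 of the 12 genes did not reach the receptor level on either array. The lymphoid median of 0.15 was 0.055 with the trend removed. Of 8 granulocyte genes 4 lay above the receptor level on at least 1 array. Mpo, the myeloperoxidase gene, was past the lower threshold at -0.46, and Prtn3 was at 0.081. With the trend removed Mpo was at -0.49 and Prtn3 at -0.0050.

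**Figure D3:**
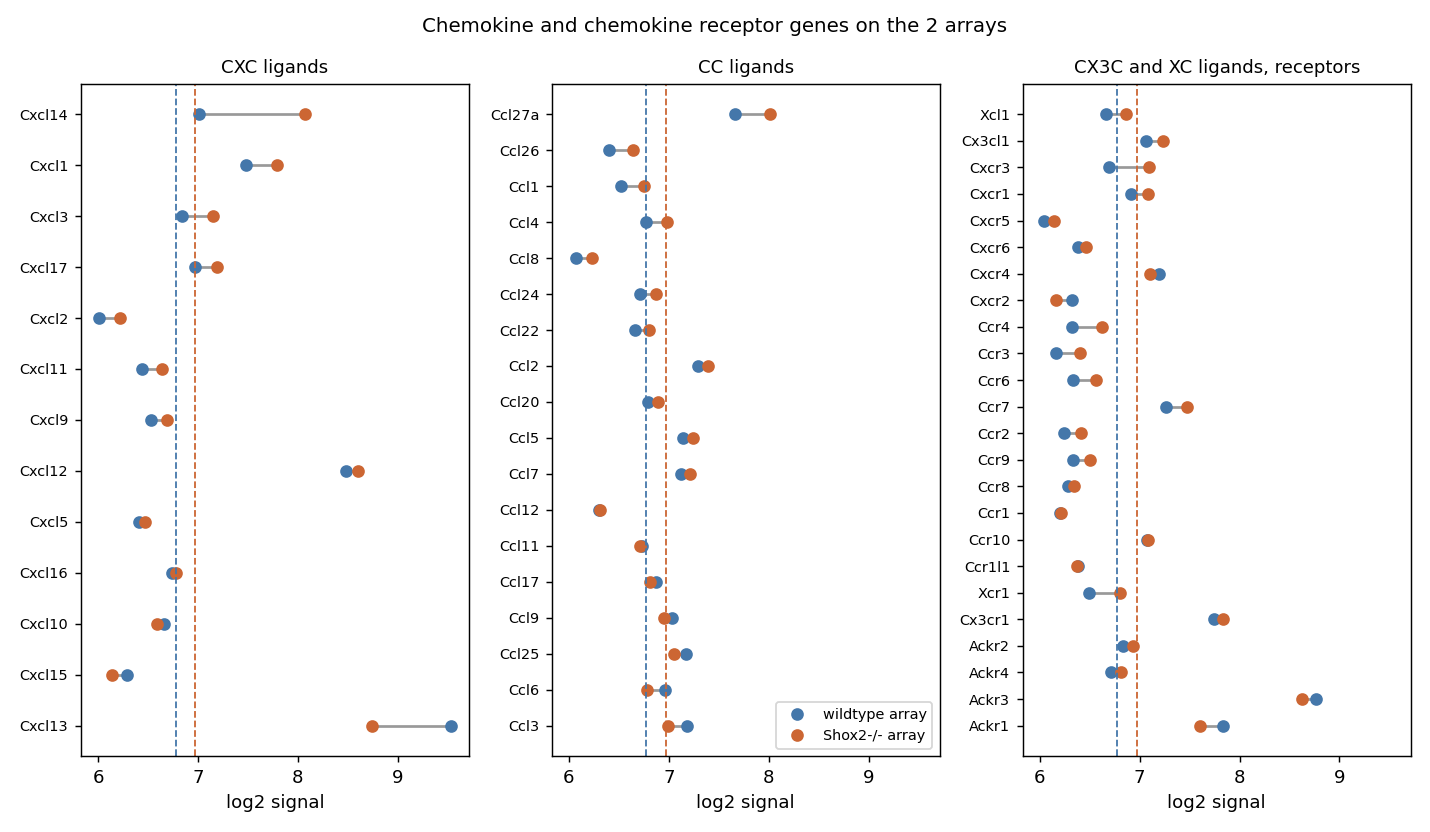
Log2 signals of the 55 genes on the wildtype array (blue) and the Shox2-/- array (orange), joined by a line and ordered within each role by the difference, with the receptor level of each array as a dashed line. Most receptors of leukocytes lie left of the dashed lines, and Cxcl14 and Cxcl13 have the longest lines. Signals of different genes depend on their probes and are not compared with each other.

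Ackr1, the Duffy antigen of red blood cells and venules, had the lowest difference among the receptors as deposited. Its log2 signal was 7.83 in wildtype and 7.60 in Shox2-/- atria, a difference of -0.23 that did not reach the threshold. With the trend removed it was -0.22, and Cxcr2, below the receptor level on both arrays, was then lower at -0.25. Of the other atypical receptors, Ackr4 had 6.72 and 6.81 and lay below the receptor level, and the difference of Ackr2 was 0.10. Both were close to 0 with the trend removed, Ackr4 at -0.017 and Ackr2 at -0.0066. The erythroid genes were lower as a list, among them Hbb-bs at -1.09, Gata1 at -0.69 and Rhag at -0.62, and the part of red blood cells in the Ackr1 value was not tested.

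The 4 Cxcr2 ligand genes Cxcl1, Cxcl2, Cxcl3 and Cxcl5, whose products attract neutrophils, had differences above 0 as deposited, from 0.064 for Cxcl5 to 0.31 for Cxcl1, and Cxcl5 was at -0.040 with the trend removed. Ppbp, which encodes the precursor of another ligand of Cxcr2, was lower and is described with the platelet genes. Cxcl1 had 7.48 and 7.80 on the wildtype and Shox2-/- arrays, and Cxcl3 had 6.84 and 7.15. Both differences, 0.31 each, lay just under the threshold, and with the trend removed they were 0.31 for Cxcl1 and 0.21 for Cxcl3. Cxcl17, known from mucosal epithelium, had 6.97 and 7.19, a difference of 0.22 that was 0.13 with the trend removed. Cxcl1, Cxcl3 and Cxcl17 lay above the receptor level on both arrays, while Cxcr2 did not.

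Ligands of monocytes and macrophages differed little. Ccl2 and Ccl7, which act through Ccr2, had differences of 0.11 and 0.096, and Ccl5, a ligand of activated T cells and platelets, had 0.097. The inflammatory ligand Ccl3 had 7.18 and 6.99 on the wildtype and Shox2-/- arrays, a difference of -0.19, and Ccl4 had 6.77 and 6.98, a difference of 0.21. Ccl6 and Ccl9, which mice make in myeloid cells, had -0.18 and -0.078, and Ccl25, a thymic and gut ligand of Ccr9, had -0.12. With the trend removed the differences above 0 were smaller, Ccl2 at 0.057, Ccl7 at 0.018, Ccl5 at 0.023 and Ccl4 at 0.10. Those below 0 were then farther from it, Ccl3 at -0.28, Ccl6 at -0.29, Ccl25 at -0.21 and Ccl9 at -0.18. All stayed between the thresholds, as most genes did, with 1.13% of all genes past the upper and 1.78% past the lower. Of 18 CC ligands 11 (61.1%) lay above the receptor level on at least 1 array, against 70.8% of all genes.

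Most members had small differences above 0, as weakly measured genes did in general. Of the 55 members 41 had a difference above 0 and 14 below it, with a median of 0.10, against 54.9% above 0 and a median of 0.021 over all genes. Of the 28 members at or below the receptor level on both arrays, 23 (82.1%) were above 0, where 81.9% of all genes at such signals were. Of the 27 members above it on at least 1 array, 18 (66.7%) were above 0, against 43.8% of all such genes. These sets are not at like signal, with wildtype medians of 7.12 for the 27 members and 8.15 for all such genes. With the trend removed their median differences were 0.023 and -0.0039. Over all 55 members with the trend removed, 31 were above 0 and 24 below it, and the median was 0.025.

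The platelet chemokine genes Ppbp and Pf4, whose symbols the rule does not match, were past the lower threshold. Ppbp and Pf4 encode chemokines that megakaryocytes store for platelets, and their log2 signals were 11.36 and 10.31 in wildtype. In Shox2-/- atria they were 10.79 and 9.75, so that the differences were -0.57 and -0.56, or -0.49 and -0.47 with the trend removed. In the megakaryocyte list all 7 measured genes were below 0, with a median of -0.34, but Ppbp and Pf4 are themselves 2 of these 7. The others were Gp9 at -0.56, Itga2b at -0.34, Tubb1 at -0.33, Gp1bb at -0.24 and Treml1 at -0.017. In the RefSeq order of protein-coding genes on chromosome 5, Ppbp and Pf4 lie within a run of 7 neighbours, Cxcl5, Ppbp, Pf4, Cxcl3, Cxcl15, Cxcl1 and Cxcl2. Of the other 5 genes in this run 4 had a difference above 0, and only Cxcl15 was below it, at -0.15. With the trend removed Cxcl15 was at -0.24 and Cxcl5 at -0.040, and the other 3 were above 0. Ccrl2, a chemokine receptor-like protein that binds chemerin, had 8.23 and 7.80, a difference of -0.43 that was -0.39 with the trend removed.

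Epithelial and mesenchymal markers are given beside Cxcl14 because that gene is known from such cells. Of 10 genes of surface epithelium 3 were past the upper threshold, Krt5 at 0.56, Tfap2a at 0.47 and Grhl3 at 0.42, with a median of 0.28 and a summed linear signal of 1625 on the wildtype and 1847 on the Shox2-/- array. All 10 lay above the receptor level on at least 1 array. Of these, 7 were above 0 and 3 below it, Perp at -0.22, Esrp1 at -0.16 and Grhl2 at -0.078. Of 10 genes of foregut and lung epithelium none reached the upper threshold. The lower was reached by 4, Cldn6 at -0.71, Foxa1 at -0.64, Nkx2-1 at -0.41 and Sox2 at -0.40. Below 0 were 8 genes and above it 2, Cdh1 at 0.11 and Krt18 at 0.089. With a median of -0.30, this list had sums of 2881 and 2438. Of all genes, 1.13% reached the upper threshold and 1.78% the lower. Of 12 genes of cushion mesenchyme 4 were past the upper threshold, Prrx1 at 0.80, Msx2 at 0.60, Twist1 at 0.42 and Scx at 0.35. In this list 8 genes were above 0 and 4 below it, Vcan at -0.39, Sox9 at -0.27, Lum at -0.23 and Postn at -0.046. The median was 0.23, and the sums were 6786 and 7186. In the epicardium list 7 of 8 genes were above 0, and Tcf21 was below it at -0.14. Only Krt19, at 0.45, was past the upper threshold, and Msln was at 0.22, or 0.12 with the trend removed. The median was 0.15, and the sums were 5838 and 6311. The medians of the 2 epithelial lists thus lay on opposite sides of 0, though each list held genes of both signs. The part of any of these cells in the Cxcl14 or Cxcl13 values was not tested.

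**Figure D4:**
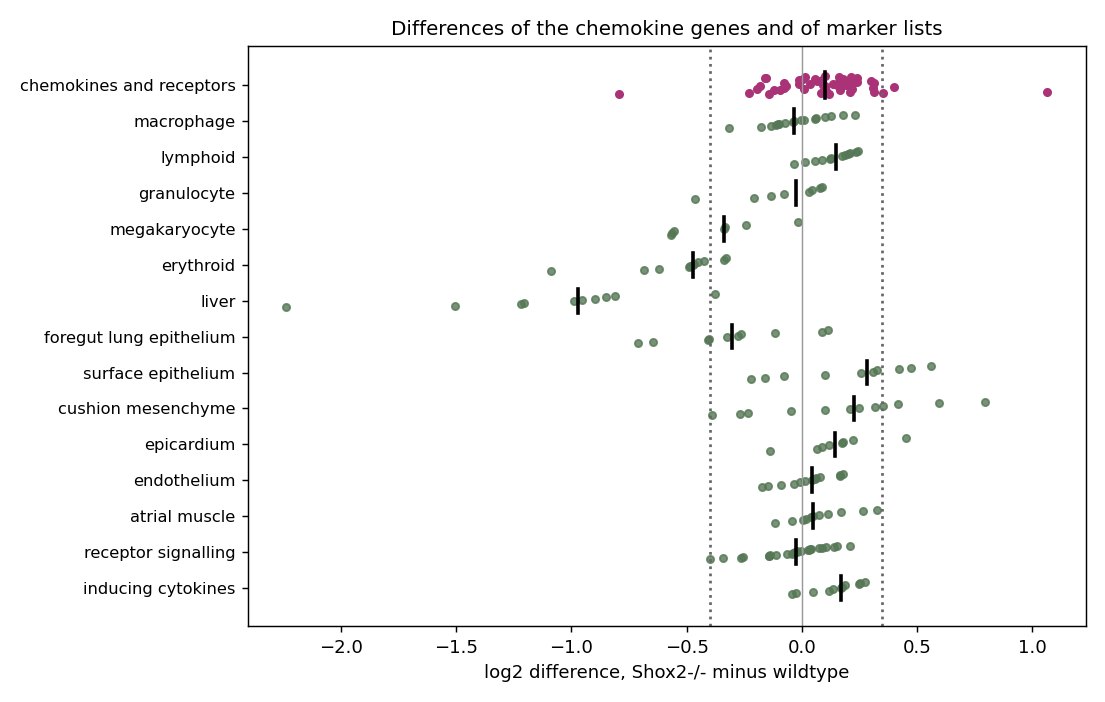
Log2 differences (Shox2-/- minus wildtype) of the 55 chemokine and receptor genes (purple) and of the genes in 14 marker and pathway lists (green), 1 point per gene, with the median of each list as a black bar and the size thresholds of 0.35 and -0.4 as dotted lines. Megakaryocyte, erythroid and liver genes lie below 0, and the chemokine genes scatter about a median of 0.10.

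The signalling genes behind the receptors lay between the thresholds. Of 27 listed genes, among them Gi proteins, arrestins, receptor kinases and the sulfotransferases that modify chemokine receptors, 26 were measured and 25 lay above the receptor level on at least 1 array. None was past a threshold, which is near the shares of 1.13% and 1.78% over all genes and does not set the list apart. Above 0 were 10 genes and below it 16, and the median difference was -0.025. The lowest were the kinase gene Jak2, with log2 signals of 9.30 on the wildtype and 8.91 on the Shox2-/- array, a difference of -0.40 just short of the threshold, and the arrestin gene Arrb1 at -0.34. Gnai2, the Gi protein of leukocytes, had 10.93 and 10.91 and is named as an example seen in the data.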

How the data were processed

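Per the study's methods, the authors took logarithms of the perfect-match probe signals of GeneChip Mouse Gene 1.0 ST arrays, applied quantile normalization and modelled them by probe and genotype (JMP Genomics 4.0). Custom CDF version 14 assigned the probes to Entrez genes. The deposited values are 1 log2 signal per gene and array for 21225 genes. The log base was read from their range, 5.09 to 13.59, since the study gives it only for ratios. Background correction was not given in the sources used here, nor was the genome build. The platform's annotation gave 1 symbol for 20239 genes, and the other 986 were unnamed here.

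The difference of each gene was computed, genes were counted at 0.35 and -0.4, and the receptor level of each array was the 95th percentile over olfactory and vomeronasal receptors. The trend between the arrays was a lowess fit of the difference on the mean signal (span 0.3, 3 iterations), tested on simulated data. Alternatives were centring on array medians, removal of the trend, restriction to genes above the receptor level, other thresholds, other background levels, platform symbols and inclusion of Pf4, Ppbp and Ccrl2. The members, the lists and the rule for naming genes were chosen with earlier results of these data known. Named are the 12 members with the highest mean signal, those past a threshold, the 8 most raised and 8 most lowered above the receptor level, and their ligands or receptors. From each list the rule takes the 2 genes with the largest difference above the receptor level and those past a threshold, of which liver and erythroid genes are given partly as ranges. The members Ackr2, Cxcr1, Cxcl2, Cxcl5 and Cxcl15 were named after their values were seen. Computations used Python 3.11.15, pandas 2.3.3, numpy 2.4.6, statsmodels 0.14.6, scipy 1.17.1 and matplotlib 3.10.9. Because each genotype has 1 array, no test was computed.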

Additional observations from a re-analysis of the deposited data

How the results depend on the processing

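No paired analysis was possible because each genotype has a single array, which also leaves no replicate to drop. The counts of 3 higher and 1 lower members were 1 and 0 at a 2-fold threshold, where 2 and 14 of all genes were past it. With thresholds of 0.4 both ways 2 members and 132 of all genes instead of 240 were higher. Adding Pf4, Ppbp and Ccrl2 gave 4 lower genes instead of 1. With the trend removed 2 members were higher, Cxcl14 and Ccl27a, also when only genes above the receptor level were kept, a combination chosen after seeing the data. The number of members above background fell from 27 to 13 at the 99th percentile of receptor genes and to 8 at the median of all genes. Ccr10 and Cx3cl1 were not among the 13, and Cxcr4 lay above the 99th percentile on the wildtype array only. The pairs that hold these genes were thus above background on both arrays by the 95th percentile alone. Of the 55 members, 23 moved by at least 0.1 with the trend removed and 10 took the other sign, none of which was past a threshold. Platform symbols gave the same 55 members, and centring on array medians changed no sign among them. Values near the receptor level carry little signal over background, which limits most of the receptor genes.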

Other observations

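Cytokines that are known to induce chemokine genes were mostly at background on both arrays. The list also holds Irf1, Nfkbia and Tnfaip3, which belong to the same pathways but do not encode cytokines. Of 12 listed genes 11 were measured, 4 lay above the receptor level on at least 1 array, and 7 did not. Of all genes, 70.8% lay above the receptor level on at least 1 array. Irf1, Nfkbia and Tnfaip3 lay above it on both arrays. The only cytokine gene above it was Ltb, on the Shox2-/- array alone. None of the 11 was past a threshold, which is near the shares of 1.13% and 1.78% over all genes. The median difference of the 11 was 0.17, or 0.062 with the trend removed. Ltb, the lymphotoxin beta gene, had log2 signals of 6.71 on the wildtype and 6.99 on the Shox2-/- array, and Tnfaip3, a feedback inhibitor of the same pathways, had 6.96 and 7.21.

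Few members that share a chromosome were past a threshold, which 1.13% of all genes reached on the upper and 1.78% on the lower side. Sets this small hold too few genes for such shares to set a chromosome apart. The 14 members on chromosome 11, mostly CC ligands, had differences from -0.19 to 0.22, with none past a threshold. The 13 on chromosome 9, mostly receptors, had differences from -0.011 to 0.31, also with none past a threshold. Of these 13, 12 were above 0, and 11 lay at or below the receptor level on both arrays. Of all genes at or below that level on both arrays, 81.9% were above 0. On chromosome 5, 1 of 11 members was past a threshold, Cxcl13, which lies outside the run of Cxcl genes around Pf4 and Ppbp.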
